A study of Mus musculus with 2 samples.

Results

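The markers described here are 10 mouse genes that label cells other than hepatocytes in the liver: Pecam1, Cdh5, Kdr, Stab2 and Lyve1 for endothelium, and Des, Pdgfrb, Reln, Acta2 and Tagln for hepatic stellate cells and the contractile cells they can become. They were taken by gene symbol from the authors' Cuffdiff table, which holds 36808 genes, and each symbol matched 1 gene. RNA sequencing was done on primary hepatocytes of C57Bl6 mice, that is, parenchymal cells isolated from liver and cultured with serum, insulin and dexamethasone. One library came from cells given 1 µM GW3965, a man-made ligand that activates liver X receptors (LXR), the nuclear receptors for oxysterols. The other came from cells given DMSO, in which the ligand was dissolved. Each group is 1 library, so the differences below are unreplicated, and other differences between the cultures and the effect of GW3965 cannot be told apart. The table names its second library GL, and it was taken as GW3965 since the labels list a single sample beside DMSO.

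Liver sinusoids are lined by fenestrated endothelial cells that take up hyaluronan and other matrix breakdown products through scavenger receptors. Stellate cells lie between this endothelium and the hepatocytes, where they store vitamin A. On activation they lose that store, gain contractile proteins and deposit matrix, and platelet-derived growth factor (PDGF) is a classical signal for their growth. Endothelial cells respond to vascular endothelial growth factors (VEGF) and angiopoietins, which hepatocytes and other cells can supply.

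All 10 markers were detected above 1 FPKM (fragments scaled to transcript length and library size) in both libraries, and all 10 had a higher FPKM in the GW3965 library. The folds, GW3965 over DMSO, ran between 1.06 for Kdr and 1.34 for Acta2, with a median of 1.18. None of the 10 reached 1.5-fold in either direction, where of the 11796 genes that reached an FPKM of 1 in one library or both, 1.02% were higher and 1.33% lower by 1.5-fold or more. A ratio above 0 by any amount was found for 52.9% of those genes. The authors' deposited table called 0 of the 9 markers it tested, against 0.285% of all genes it tested, and also gave 0 of the 9 an unadjusted p under 0.05, against 3.34% of all genes. Counts past 1.5-fold use the log2 ratio of FPKM plus a pseudocount of 1, while folds are of FPKM itself, so a low gene can pass by its fold and not by its ratio. On either scale 0 of the 10 markers passed. In these bulk libraries, more or fewer cells of a type and more or less RNA per cell cannot be told apart.

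**Figure D1:**
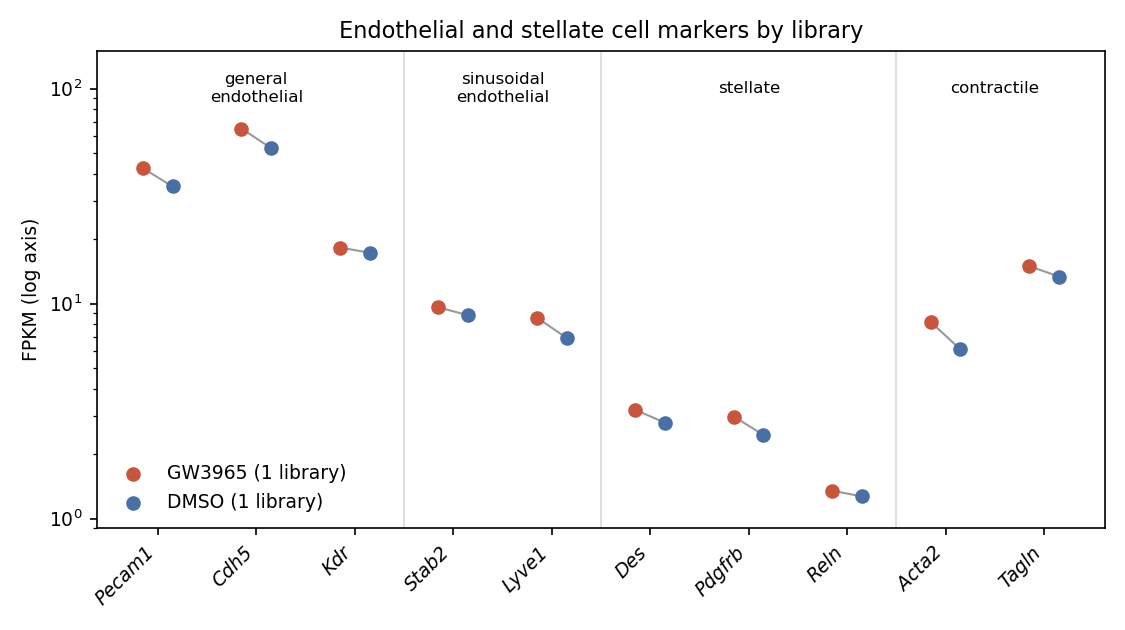
FPKM of each marker on a log axis, with GW3965 (red) to the left of DMSO (blue) and 1 point per library. Cdh5 and Pecam1 stand highest, Reln lowest, and in every pair the GW3965 point is the higher one.

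The levels of the markers spanned more than the difference between the libraries. Cdh5 encodes VE-cadherin, the adhesion molecule of endothelial junctions (ENSMUSG00000031871, chromosome 8, 106625525 to 106668402, mm9). It had 65.2 FPKM in GW3965 and 52.9 FPKM in DMSO, more than 87.4% of the 11796 genes in DMSO. Reln, which encodes the secreted glycoprotein reelin made by stellate cells (ENSMUSG00000042453, chromosome 5, 21390272 to 21850523), had 1.35 FPKM in GW3965 and 1.27 FPKM in DMSO. The level of Cdh5 was thus 48.4 times that of Reln in GW3965 and 41.7 times in DMSO. The order of the 10 levels was the same in both libraries: Cdh5, Pecam1, Kdr, Tagln, Stab2, Lyve1, Acta2, Des, Pdgfrb and Reln. With 1 library per group the spread of a level between cultures is unknown, so neighbours such as Stab2 and Lyve1, or Des and Pdgfrb, cannot be said to differ.

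Among the general endothelial markers, Cdh5 and Pecam1 had nearly the same ratio and Kdr a smaller one. Ratios below are the log2 of FPKM plus 1, GW3965 minus DMSO, and on this scale differences of low genes come out smaller than they are. The ratio of Cdh5 was 0.30 and its fold 1.23 (95% interval 1.12 to 1.36). Intervals are exact binomial ones on fragments estimated at the shortest annotated coding transcript, and they cover counting error only. Pecam1 encodes the adhesion molecule CD31 of endothelium, platelets and leukocytes (ENSMUSG00000020717, chromosome 11, 106515531 to 106611942). It had 42.6 FPKM in GW3965 and 35.1 FPKM in DMSO, a ratio of 0.27 and a fold of 1.22 (1.15 to 1.29). The authors' deposited table marks the test of Pecam1 as failed and lists a log2 fold of 0 and a p of 1 in place of a result, so its values here are those of the FPKM columns. Kdr encodes VEGF receptor 2, the main signalling receptor for VEGF-A (ENSMUSG00000062960, chromosome 5, 76328852 to 76374483). It had 18.2 FPKM in GW3965 and 17.3 FPKM in DMSO, a ratio of 0.08 and a fold of 1.06 (1.02 to 1.09). Cdh5 was 3.58 times as abundant per length as Kdr in GW3965 and 3.06 times in DMSO, while its ratio to Pecam1 was 1.53 in GW3965 and 1.51 in DMSO.

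The sinusoidal markers Stab2 and Lyve1 both bind hyaluronan. Stab2 encodes the scavenger receptor stabilin-2 (ENSMUSG00000035459, chromosome 10, 86301839 to 86490760) and had 9.60 FPKM in GW3965 and 8.84 FPKM in DMSO. Its ratio was 0.11 and its fold 1.09 (1.05 to 1.13). Lyve1 encodes a hyaluronan receptor shared by sinusoidal and lymphatic endothelium (ENSMUSG00000030787, chromosome 7, 117994121 to 118006467). It had 8.61 FPKM in GW3965 and 6.93 FPKM in DMSO, a ratio of 0.28 and a fold of 1.24 (1.15 to 1.34). The counting intervals of these folds do not overlap, while the spread between cultures was not measured. The table's Stab2 locus is shared with 6 other genes, and that of Lyve1 with none. The median ratio of the 5 endothelial markers was 0.27, against 0.01 over all 11796 genes.

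The stellate markers were the least abundant ones. Des encodes desmin, a muscle intermediate filament that rodent stellate cells also make (ENSMUSG00000026208, chromosome 1, 75356904 to 75371587). It had 3.20 FPKM in GW3965 and 2.79 FPKM in DMSO, a ratio of 0.15 and a fold of 1.15 (1.02 to 1.29). Pdgfrb encodes the PDGF receptor β of stellate cells and pericytes (ENSMUSG00000024620, chromosome 18, 61204804 to 61244715). It had 2.98 FPKM in GW3965 and 2.45 FPKM in DMSO, a ratio of 0.21 and a fold of 1.22 (1.11 to 1.33). The ratio of Reln was 0.05 and its fold 1.06, with an interval of 0.971 to 1.16 that holds 1. Reln was the marker with the smallest ratio on the log2(FPKM + 1) scale, and 39.3% of all 11796 genes had a ratio at least as high.

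The contractile markers held the highest and one of the middle ratios. Acta2 encodes α-smooth muscle actin, the usual mark of activated stellate cells and smooth muscle (ENSMUSG00000035783, chromosome 19, 34315580 to 34329826). It had 8.20 FPKM in GW3965 and 6.12 FPKM in DMSO, a ratio of 0.37 and a fold of 1.34 (1.14 to 1.57). A ratio at least that high was found for 2.90% of all 11796 genes. Tagln encodes transgelin, an actin-binding protein of smooth muscle (ENSMUSG00000032085, chromosome 9, 45646663 to 45744141). It had 14.9 FPKM in GW3965 and 13.4 FPKM in DMSO, a ratio of 0.15 and a fold of 1.12, with an interval of 0.924 to 1.36 that holds 1. The table's Tagln locus is shared with 5 other genes, among them Bace1, Pcsk7 and Rnf214, that of Reln with 6, and those of Des and Pecam1 with 1 each, and assignment of fragments to a gene is less certain there and for Stab2 than for a gene on its own. The median ratio of the 5 stellate and contractile markers was 0.15.

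**Figure D2:**
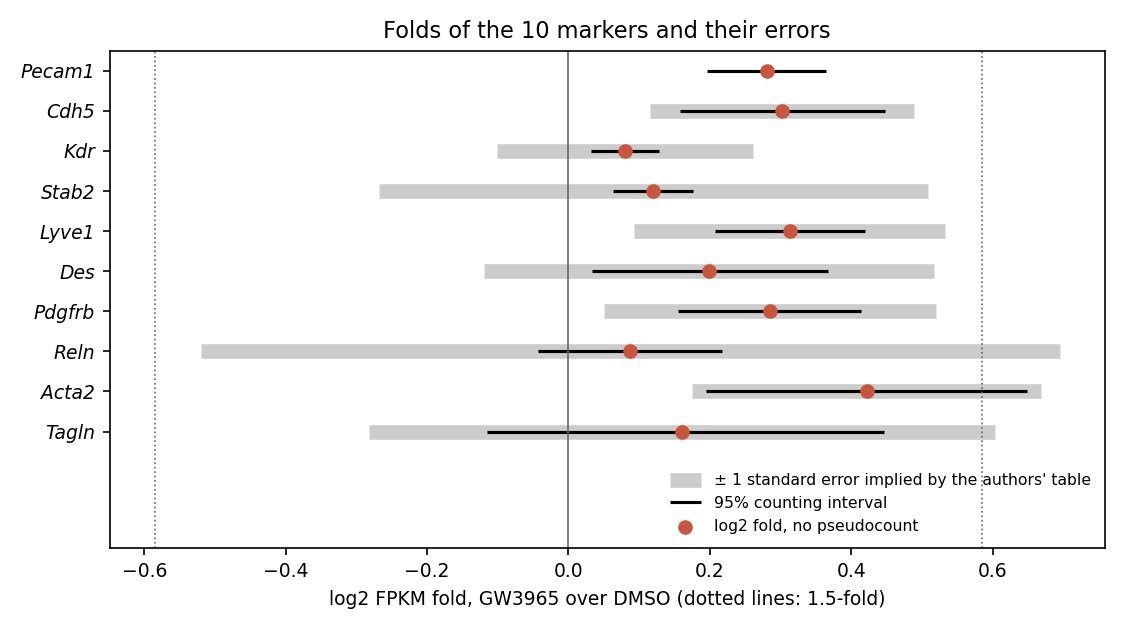
Log2 fold of FPKM without a pseudocount, GW3965 over DMSO, for each marker, with the 95% counting interval (black) and 1 standard error either way as implied by the authors' deposited table (grey, absent for Pecam1). All points lie right of 0 and left of the 1.5-fold line, and the grey bands are wider than most counting intervals.

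With fragments estimated at the shortest coding transcript, counting error alone left 8 of the 10 folds above 1 and 2, Reln and Tagln, with intervals that hold 1. The intervals of Cdh5, Pecam1, Acta2 and Tagln depend most on that choice. For Cdh5 the estimate was 995 fragments in GW3965 and 649 in DMSO. At its longest coding transcript it was 19513 in GW3965 and 12726 in DMSO. The estimate for Tagln was 255 fragments in GW3965 and 183 in DMSO, against 1679 in GW3965 and 1208 in DMSO at its longest coding transcript, where the interval would be narrower. That narrower interval was not computed, so the count of 8 and 2 holds for the shortest coding transcripts only. The errors used by the authors were wider. The standard errors implied by the log2 fold and test statistic in the authors' deposited table ran between 0.18 for Kdr and 0.61 for Reln. By that measure 4 of the 9 tested markers, Cdh5, Lyve1, Pdgfrb and Acta2, had a log2 fold larger than 1 standard error and 0 had one larger than 2. The lowest p among the markers in the authors' deposited table was 0.0873, for Acta2, followed by 0.105 for Cdh5 and 0.155 for Lyve1, and the q-value of each was 0.999957. Such a test sets 1 library against another and says nothing of how much cultures vary.

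Acta2 belongs to a family of 6 actins with similar coding sequences, so shared reads could move its value. Of the 25-base words in annotated Acta2 transcripts, 2.72% also occur in transcripts of another actin, most of them in Actg1 (1.89%) and Actb (1.34%). The cytoplasmic actins Actb and Actg1 were far more abundant than Acta2. Actb had 2818 FPKM in GW3965 and 2257 FPKM in DMSO (ratio 0.32), and Actg1 had 329 FPKM in GW3965 and 297 FPKM in DMSO (ratio 0.15). The muscle actins stayed below 1 FPKM in both libraries: Acta1 had 0.307 FPKM in GW3965 and 0.491 FPKM in DMSO, Actg2 had 0.0414 FPKM in GW3965 and 0.0930 FPKM in DMSO, and Actc1 had 0.00966 FPKM in GW3965 and 0.0120 FPKM in DMSO. The part of shared actin reads in the Acta2 value was not tested. Tagln shared no 25-base word with Tagln2 or Tagln3, and Stab2 none with Stab1.

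The promoter of Acta2 is shown because its CArG boxes, binding sites of serum response factor (SRF), are the textbook control elements of contractile genes and because Acta2 had the highest ratio of the markers. RefSeq promoters on GRCm38.p6, 250 bases before to 50 bases after the start, matched 5 of the 10 markers: Des, Reln, Kdr, Stab2 and Acta2. In the sequence below (chr19:34255324-34255623, minus strand, read 5′ to 3′) capitals mark each CArG box in which at most 1 of the 6 middle letters is not A or T.
Acta2: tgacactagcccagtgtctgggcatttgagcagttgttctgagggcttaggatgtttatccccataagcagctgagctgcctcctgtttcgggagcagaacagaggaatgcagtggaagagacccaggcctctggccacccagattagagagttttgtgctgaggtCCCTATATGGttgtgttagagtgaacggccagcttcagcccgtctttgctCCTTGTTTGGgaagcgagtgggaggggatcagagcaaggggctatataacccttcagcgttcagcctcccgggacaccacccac
Acta2 held 2 such boxes and Kdr 1, and 9.98% of the 32851 promoters in the table held at least 1, the pattern being the same on both strands. The exact CArG box was in 0 of the 5 marker promoters and in 1.63% of all. The LXR-type direct repeat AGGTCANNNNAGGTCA, searched on both strands, was in 0 of the 5 and in 0.0152% of all. These matches describe letters in a window and were not tested as binding sites.

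Other genes of the same cell types did not all stand on the same side. Of 30 further endothelial genes, 27 reached the minimum of 1 FPKM, 21 of them with a ratio above 0 and 6 below, and 0 passed 1.5-fold on either scale. Their median ratio was 0.09. The largest ratios in size were those of S1pr1, a sphingosine 1-phosphate receptor, with 25.5 FPKM in GW3965 and 19.2 FPKM in DMSO (0.39), of the angiopoietin receptor Tek, with 6.69 FPKM in GW3965 and 4.90 FPKM in DMSO (0.38), and of the transcription factor Sox17 (0.30). The most abundant ones lay close to 0: Egfl7, a secreted endothelial protein, at 87.6 FPKM in GW3965 and 85.6 FPKM in DMSO, the TGF-β co-receptor Eng at 70.1 FPKM in GW3965 and 66.2 FPKM in DMSO, and Plvap, the protein of endothelial diaphragms, at 26.2 FPKM in GW3965 and 25.8 FPKM in DMSO.

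Further sinusoidal genes were mostly lower in GW3965, unlike Stab2 and Lyve1. Of 18, 14 reached the minimum, 5 with a ratio above 0 and 9 below, with a median of -0.12. Clec4g, a C-type lectin of sinusoidal endothelium, had 0.996 FPKM in GW3965 and 2.14 FPKM in DMSO and was the only one past 1.5-fold by its ratio, at -0.66, with a fold of 0.465 (0.352 to 0.612). The authors' deposited table gives Clec4g p = 0.00629 and q = 0.595, without a call. The Clec4g locus is shared with 3 other genes, so assignment of its fragments is less certain. The mannose receptor Mrc1, which macrophages also carry, had 2.11 FPKM in GW3965 and 3.24 FPKM in DMSO, a ratio of -0.45 and a fold of 0.650 that passes 1.5-fold without the pseudocount, and the receptor Gpr182 had 4.05 FPKM in GW3965 and 5.75 FPKM in DMSO (-0.42). Stab1, the other stabilin, had 27.7 FPKM in both libraries, Fcgr2b, an Fc receptor, had 42.2 FPKM in GW3965 and 46.4 FPKM in DMSO (-0.14), and the VEGF-C receptor Flt4 had 23.2 FPKM in GW3965 and 21.6 FPKM in DMSO (0.10). The difference between these genes and the 5 endothelial markers has no test with 1 library per group.

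Among 22 further stellate genes only 11 reached the minimum, 4 above and 7 below 0, with a median of -0.04. Several defining genes of quiescent stellate cells were low in both libraries: Lrat, which esterifies retinol for storage, had 0.228 FPKM in GW3965 and 0.259 FPKM in DMSO, Hand2, a stellate cell transcription factor, had 0.569 FPKM in GW3965 and 0.692 FPKM in DMSO, and Gfap had 0.0204 FPKM in GW3965 and 0.0981 FPKM in DMSO. The largest ratios in size belonged to Steap4, a metalloreductase (130 FPKM in GW3965 and 173 FPKM in DMSO, -0.41), the growth factor Hgf (3.46 FPKM in GW3965 and 4.28 FPKM in DMSO, -0.24) and the endothelin receptor Ednrb (4.39 FPKM in GW3965 and 3.67 FPKM in DMSO, 0.21). Steap4 and Ecm1 (140 FPKM in GW3965 and 135 FPKM in DMSO) are not confined to stellate cells, and the cells their RNA came from were not tested.

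Fibroblast and matrix genes mostly had ratios above 0. Of 19, 12 reached the minimum, 9 above and 3 below 0, with a median of 0.13 and 0 past 1.5-fold by their ratio. Col1a1, a chain of the fibrillar collagen of scars, had 4.79 FPKM in GW3965 and 3.58 FPKM in DMSO (0.34), Postn, the matrix protein periostin, had 1.26 FPKM in GW3965 and 0.803 FPKM in DMSO (ratio 0.33, fold 1.57, 0.977 to 2.71), and Col3a1 had 7.10 FPKM in GW3965 and 5.79 FPKM in DMSO (0.26). The abundant Timp1, an inhibitor of matrix proteases, had 38.6 FPKM in GW3965 and 38.7 FPKM in DMSO.

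Of 26 contractile and SRF target genes, 20 reached the minimum, 14 above and 6 below 0, with a median of 0.05 and 0 past 1.5-fold. Ctgf, a matricellular growth factor, had 135 FPKM in GW3965 and 106 FPKM in DMSO (0.34), and the actin crosslinker Actn1 had 196 FPKM in GW3965 and 160 FPKM in DMSO (0.29), while caldesmon (Cald1) had 426 FPKM in both libraries. Ankrd1 and Cyr61, of the same list, went the other way. Ankrd1 had 73.3 FPKM in GW3965 and 87.9 FPKM in DMSO (-0.26), and Cyr61 had 193 FPKM in GW3965 and 230 FPKM in DMSO (-0.25). The smooth muscle genes Myh11, Cnn1 and Myocd were low. Myh11, a myosin heavy chain, had 0.168 FPKM in GW3965 and 0.147 FPKM in DMSO. Cnn1, calponin 1, had 0.219 FPKM in GW3965 and 0.236 FPKM in DMSO. The coactivator Myocd had 0.00524 FPKM in GW3965 and 0.00662 FPKM in DMSO. Other contractile genes of the list, Smtn, Tpm2, Myl9 and Mylk, were above 1 FPKM in both libraries. Smtn had 18.4 FPKM in GW3965 and 17.4 FPKM in DMSO. Tpm2 had 75.9 FPKM in GW3965 and 62.2 FPKM in DMSO. Tagln stood among relatives with like ratios, Tagln2 at 0.16, Cnn2 at 0.16 and Cnn3 at 0.18. Desmin stood below the related filament vimentin, Vim, at 547 FPKM in GW3965 and 432 FPKM in DMSO (0.34), and nestin, Nes, had 13.0 FPKM in GW3965 and 13.9 FPKM in DMSO (-0.09).

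**Figure D3:**
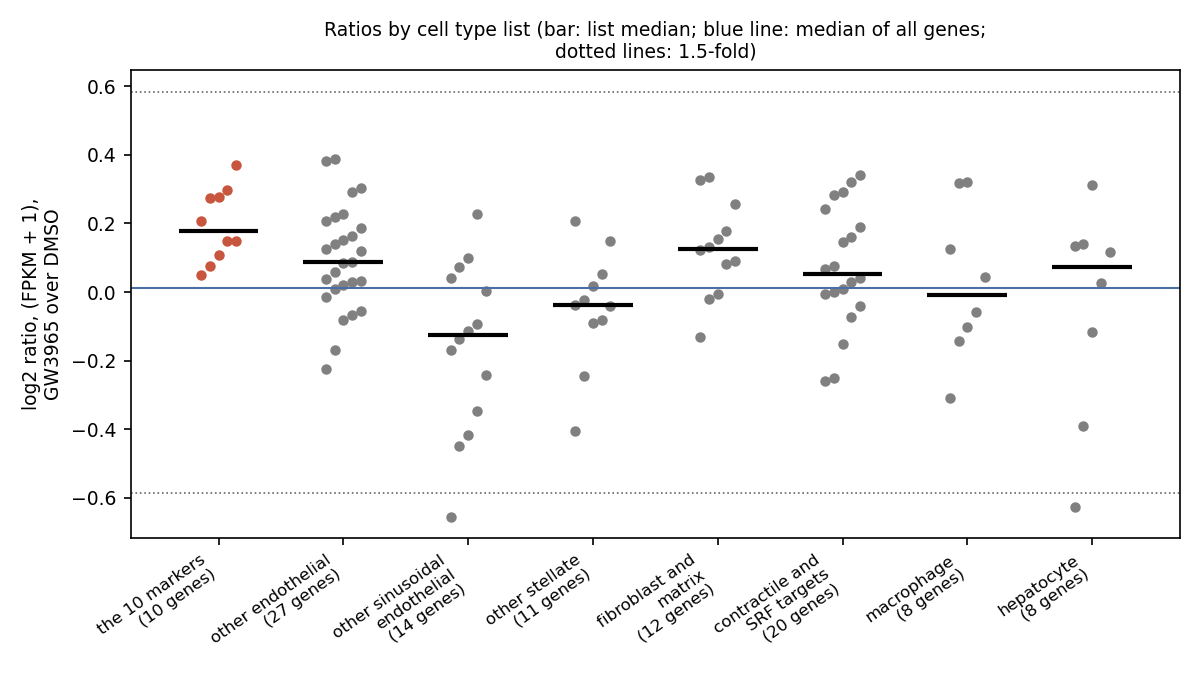
Log2 ratio of FPKM + 1, GW3965 over DMSO, for genes at the minimum FPKM in 8 lists, each point 1 gene and each bar the list median. The 10 markers (red) all lie above the median of all genes (blue line), while most of the other sinusoidal genes lie below it, with Clec4g past the lower 1.5-fold line.

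Some ligands around the markers had larger ratios than any of the 10 markers. Of the 139 genes at the minimum in the other lists, 5 outside the LXR check genes were at least 1.5-fold higher by their ratio. Over all 11796 genes 1.02% were higher and 1.33% lower by that much. The lists were chosen with earlier results of these data known, so setting the count beside that share is no test. Of the 5, 4 were growth factors that act on vessels or on stellate cells and fibroblasts. Without the pseudocount Postn and Lrp8 were past 1.5-fold too, and 4 listed genes, Clec4g, Ahsg, Mrc1 and Tgfb2, were lower, against 2 with the pseudocount. Vegfa, the ligand of Kdr, had 61.7 FPKM in GW3965 and 35.9 FPKM in DMSO, a ratio of 0.76 and a fold of 1.72 (1.58 to 1.87). The test of Vegfa is marked as failed in the authors' deposited table. Pgf, placental growth factor, had 4.95 FPKM in GW3965 and 2.96 FPKM in DMSO (ratio 0.59, fold 1.67, 1.44 to 1.95). Angpt2, an angiopoietin that acts on the receptor Tek, had 14.7 FPKM in GW3965 and 9.12 FPKM in DMSO (ratio 0.63, fold 1.61, 1.52 to 1.70). Kdr, with its ratio of 0.08, did not share the size of the ratio of Vegfa. The VEGF receptor Flt1 stood at 0.21, and the co-receptors Nrp1 and Nrp2 at 0.24 and 0.23. Of the 12 measured genes of the VEGF and angiopoietin list 11 lay above 0, and the median was 0.23.

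Pdgfa, a PDGF ligand that binds PDGF receptor α, had 70.4 FPKM in GW3965 and 43.7 FPKM in DMSO, a ratio of 0.68 and a fold of 1.61 (1.54 to 1.68). Pdgfb, the classical ligand of the receptor that Pdgfrb encodes, had 22.7 FPKM in GW3965 and 20.6 FPKM in DMSO (0.13), Pdgfc had 1.81 FPKM in GW3965 and 2.27 FPKM in DMSO (-0.22), and the receptor gene Pdgfra had 2.43 FPKM in GW3965 and 2.13 FPKM in DMSO (0.13). Among 11 measured genes of the TGF-β list, 8 lay above and 3 below 0. Of these Tgfb2, a TGF-β ligand, had 1.10 FPKM in GW3965 and 1.98 FPKM in DMSO (ratio -0.51, fold 0.555, 0.476 to 0.648), and Smad3, a transcription factor of the pathway, had 43.2 FPKM in GW3965 and 35.2 FPKM in DMSO (0.29).

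Reelin acts through the receptors Vldlr and Lrp8, which also belong to the LDL receptor family. Lrp8 had 8.27 FPKM in GW3965 and 5.30 FPKM in DMSO (ratio 0.56, fold 1.56, 1.43 to 1.70), and Vldlr had 4.16 FPKM in GW3965 and 2.94 FPKM in DMSO (0.39), both above the ratio of Reln itself. Dab1, the adaptor of these receptors, was at 0.0610 FPKM in GW3965 and 0.0220 FPKM in DMSO. Of the hyaluronan genes, the receptor Cd44 had 92.9 FPKM in GW3965 and 57.2 FPKM in DMSO (ratio 0.69, fold 1.62, 1.57 to 1.69), a larger ratio than those of Lyve1 and Stab2. All 6 measured members of that list, Lyve1 and Stab2 included, lay above 0, with Stab1 at 0.003 the lowest. The other 5 of its 11 genes stayed below the minimum, Hmmr and Has3 lower in GW3965 and Has1, Has2 and Vcan higher. Hmmr had 0.380 FPKM in GW3965 and 0.810 FPKM in DMSO (fold 0.469, 0.368 to 0.597). In the authors' deposited table Cd44 had p = 0.00188 and q = 0.279, Pdgfa p = 0.00583 and q = 0.571, Angpt2 p = 0.00824 and q = 0.679, and Pgf p = 0.0111 and q = 0.799, none of them called. The locus of Angpt2 is shared with 4 other genes, that of Lrp8 with 3, that of Pdgfa with 2 and that of Cd44 with 1. Assignment of their fragments is less certain. Those of Vegfa and Pgf are not shared.

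**Figure D4:**
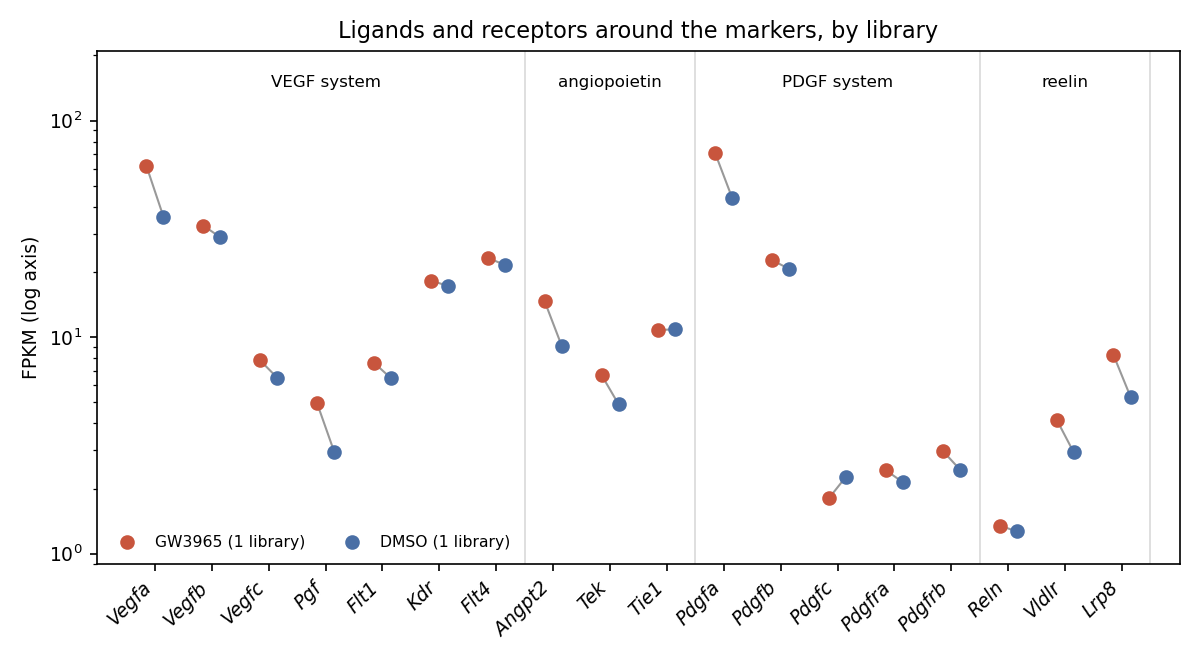
FPKM on a log axis of VEGF, angiopoietin, PDGF and reelin ligands and receptors, GW3965 (red) left of DMSO (blue), 1 point per library. Vegfa, Pgf, Angpt2 and Pdgfa are separated the most, while Kdr and Tie1 are nearly level.

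Markers of other cells were compared to place these levels. Most measured hepatocyte genes were abundant, such as Apoa1, an apolipoprotein, with 660 FPKM in GW3965 and 598 FPKM in DMSO (0.14). Cps1 was low, with 2.098 FPKM in GW3965 and 1.497 FPKM in DMSO (0.31). Tat stayed below the minimum, with 0.447 FPKM in GW3965 and 0.962 FPKM in DMSO. The list median of 8 measured genes was 0.07. Ahsg, which encodes fetuin-A, stood at -0.63 and the hepatocyte transcription factor Hnf4a at -0.39, while Alb and Trf carry the table's mark for too many fragments, are listed at 0 in GW3965 and were not used. Of 11 macrophage markers 8 reached the minimum, 4 above and 4 below 0, with a median of -0.007. At a minimum of 5 FPKM only Cd68, Cd5l and Lyz2 remained, and the median was 0.32. The summed levels of the 11 markers were 119.9 FPKM in GW3965 and 102.4 FPKM in DMSO. Most of that sum was Cd68, which is not confined to macrophages, at 93.9 FPKM in GW3965 and 74.9 FPKM in DMSO. The leukocyte marker Ptprc had 1.03 FPKM in GW3965 and 1.12 FPKM in DMSO. Among platelet genes, which bear on Pecam1, Itga2b had 5.20 FPKM in GW3965 and 3.76 FPKM in DMSO (0.38) and Pf4 had 2.10 FPKM in GW3965 and 2.83 FPKM in DMSO (-0.31), while Gp9, Ppbp and Gp1ba stayed below 1 FPKM. Of the 4 lymphatic genes, which bear on Lyve1, Ccl21a was listed at 0 in both libraries, Mmrn1 had 0.00664 FPKM in GW3965 and was listed at 0 in DMSO, Pdpn had 1.24 FPKM in GW3965 and 0.924 FPKM in DMSO (0.22), and Prox1, a hepatocyte gene as well, had 5.37 FPKM in GW3965 and 6.60 FPKM in DMSO (-0.25). Cholangiocyte genes had a median of 0.07 over 3 measured members. All 6 mesothelial markers were below 1 FPKM in both libraries, with a sum of 0.251 FPKM in each. All 5 lymphocyte markers were below it too, with a sum of 0.368 FPKM in GW3965 and 0.399 FPKM in DMSO. The share of endothelial or stellate cells in either culture is not given in the sources used here, and its part in the marker levels was not tested.

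LXR target genes were higher in the same GW3965 library. The LXR target Abca1, a cholesterol exporter, had 81.1 FPKM in GW3965 and 14.6 FPKM in DMSO, and all 4 LXR check genes (Abca1, Abcg1, Scd1 and Srebf1) were higher by 1.5-fold or more, with a median ratio of 2.13. The steps between low FPKM values place the libraries at about 77800000 fragments for GW3965 and 62600000 for DMSO. On that scale, and at the shortest coding transcripts, the fewest fragments behind a marker were 255 in GW3965 and 183 in DMSO for Tagln. At the longest coding transcripts the fewest were 718 in GW3965 and 503 in DMSO for Des. For Kdr, 8192 in GW3965 and 6236 in DMSO stood behind the value.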

How the data were processed

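Total RNA was turned into sequencing libraries with a TruSeq kit, per the labels' protocols. The tools CASAVA, TopHat2 2.0.6, Cufflinks 2.0.2 and Cuffdiff and the builds mm9 and NCBIM37 come from the submitters' processing notes; their settings, strand handling and scaling were not given in the sources used here. Each library has 1 deposited column of FPKM, per the file headers. The authors also deposited a log2 fold, a test statistic (a score whose sign is opposite to the fold), a p-value and a q-value. A standard error was derived as the log2 fold over the score, both in size.

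Ratios and counts past 1.5-fold used a pseudocount of 1 FPKM and a minimum of 1 FPKM in either library, and folds none, with 7 genes marked for too many fragments left out. No test was made, because each group has 1 library. A list is described by its counts and its median. The members and lists were chosen with earlier results of these data known. Named genes are the 10 markers, and per list the 3 most abundant and 3 with the largest ratio in size. Further list members were named after their values were seen. Not every gene the rule takes is printed.

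Table starts were raised by 1, because gene lengths then equalled those of GENCODE M21 for 58.5% of 19846 single-gene loci, against 1.53% otherwise. The steps between low FPKM values gave the depth. Among 2565 low genes the commonest FPKM ratio of the libraries, DMSO over GW3965, was 1.243, read as 1 fragment each. After division by it 65.1% of the ratios came within 0.1% of a quotient of whole numbers up to 10, against 0.897% when moved by 3%. Genes with 1 transcript gave the absolute scale, with 150 bases taken off each length. Fragment numbers are estimates. The size rule and the interval formula were tested on simulated counts of equal depth. The unequal depths and the estimation of fragments from FPKM were not simulated, so that step behind the printed intervals was not tested. The software was matplotlib 3.10.9, scipy 1.17.1, pandas 2.3.3 and numpy 2.4.6 under Python 3.11.15.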

Additional observations from a re-analysis of the deposited data

How the results depend on the processing

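All 10 markers kept a ratio above 0, and 0 reached the size threshold, with a pseudocount of 0.1 or 5, without a minimum, at 2-fold, after centring on the median, after scaling both libraries to the same sum and, chosen after seeing the data, with no pseudocount. At a minimum of 5 FPKM 7 markers remained measured and among genes the authors tested 9, all above 0. The 86 marker ratios so computed ran between 0.02 and 0.42. A pseudocount, a minimum, a size threshold or a restriction to tested genes cannot change the sign of a ratio. Centring and scaling can do so in principle, but their shifts were too small here. The smallest ratio, that of Reln, was 0.049, and became 0.039 with centring and 0.051 with scaling. The settings thus put no marker's sign to a test. A marker within 1.5-fold is also within 2-fold by construction. The endothelial median ran between 0.19 and 0.28 and the stellate and contractile median between 0.10 and 0.29. Markers were also left out after seeing the data: without Pecam1 and Tagln the medians were 0.19 and 0.18, and with the 5 markers that have neither a failed test nor a shared locus, all above 0, they were 0.28 and 0.29. In the other lists, 139 genes reached the minimum of 1 FPKM. By the log2 of FPKM plus 1, 9 of these were at least 1.5-fold higher and 2 lower, against 1.02% and 1.33% of all 11796 genes. Of the 9, 4 were the LXR check genes, listed as known LXR targets, and 5 lay outside them. With no pseudocount, and with a pseudocount of 0.1, 11 were higher and 4 lower, Postn, Lrp8, Mrc1 and Tgfb2 being added. The lower count was 1 with a pseudocount of 5 and 1 at a minimum of 5 FPKM. At 2-fold 4 were higher, all of them LXR check genes, and 0 lower. Of 171 list medians 8 moved by more than the counting error of the list's middle gene and 6 changed sign, those in the macrophage, lymphatic and intermediate filament lists. At a minimum of 5 FPKM the medians were 0.40 for the PDGF, 0.38 for the platelet and 0.32 for the macrophage list. Only Pdgfa and Pdgfb, Itga2b alone, and Cd68, Cd5l and Lyz2, respectively, remained in these lists, so the values do not describe whole lists. The actin family stood at 0.07 without a minimum and at 0.25 with a pseudocount of 5, and the LXR check genes ran between 1.75 and 2.28. Fewer genes enter at the higher minimum, and pseudocounts act by construction on low genes. No paired analysis was possible because there is a single library of each kind. Below 1 FPKM few fragments stand behind a value, and no setting replaces the missing replicates.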
